A study of Mus musculus with 4 samples.

Results

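The 94 miRNAs described here are mouse names on the array that end in a star, the older label for a passenger strand. They were taken by name from the 650 miRNA names on the array (611 of them mouse), among which 115 mouse names were starred. The other 21 starred names were left out by the rule, namely 13 that lie in the Dlk1-Dio3 region of chromosome 12, miR-31*, miR-140*, miR-17* and miR-24-2*, and 4 whose names begin with miR-297, miR-466, miR-467 or miR-669. The rule used names and positions and no signal. The samples were mouse embryonic fibroblasts (MEFs) of strain C57BL/6J, grown without any listed treatment, and total RNA of each was hybridised to 1 single-colour Agilent miRNA array. The Lats2-/- (KO) cells lack Lats2, a kinase of the Hippo growth control pathway, and came from clone #112-C at PDL 70 and 96 (PDL is taken to mean population doubling level). The Lats2+/+ (WT) cells came from clone #112-K at PDL 68 and 90. With 1 clone per genotype, genotype and clone cannot be told apart, and the spread between 2 arrays of the same clone at different PDL was the only error available.

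A miRNA hairpin is cut into a short duplex, of which one strand is usually kept in an Argonaute protein and guides it to target mRNAs, while the other strand is usually degraded. In older nomenclature the strand found less often carries the star, and the name without the star belongs to the strand from the opposite arm of the hairpin. Strand choice is known to depend on the stability of the duplex ends and on the first base, and it can differ between tissues, so that for some hairpins both strands are found.

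Sequences of the starred strands that were above background, with the opposite strands of the hairpins to which the results refer, were taken from RefSeq (GRCm38.p6). The capitals mark the seed, bases 2 to 8, which pairs with target mRNAs. The first 8 lines are 4 of the 5 hairpins whose starred strand passed the filter of the comparison of KO with WT (not miR-199b*), and both strands are shown because their seeds differ.
miR-22*: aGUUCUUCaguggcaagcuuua
miR-22: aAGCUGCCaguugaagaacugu
miR-29b*: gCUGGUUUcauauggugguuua
miR-29b: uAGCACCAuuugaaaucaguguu
miR-135a*: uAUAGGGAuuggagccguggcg
miR-135a: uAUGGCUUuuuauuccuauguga
miR-674*: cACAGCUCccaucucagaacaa
miR-674: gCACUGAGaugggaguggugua
The next 5 are starred strands that were above background on 1 array only.
let-7d*: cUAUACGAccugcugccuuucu
miR-214*: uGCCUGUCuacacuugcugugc
miR-30a*: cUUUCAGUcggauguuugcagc
miR-34c*: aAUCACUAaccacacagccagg
miR-483*: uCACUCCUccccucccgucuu
The last pair belongs to the hairpin with the brightest partner.
miR-21*: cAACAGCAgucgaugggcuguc
miR-21: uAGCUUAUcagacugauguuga

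By the sequence of their probes, 84 of the 94 starred names matched a mature RefSeq miRNA, 30 of them on the 5p arm and 54 on the 3p arm. The names without a match were miR-124*, miR-133a*, miR-145*, miR-181a-2*, miR-199b*, miR-19a*, miR-30b*, miR-378*, miR-676* and miR-712*. The strands differed in their first base. U opened 12 of the 84 starred sequences (14.3%), whereas it opened 44 of the 76 partner sequences with a match (57.9%). C opened 35 starred sequences (41.7%) and 8 partner sequences. Among the 9 matched starred strands that were above background on at least 1 array, U opened 3, C 3, A 2 and G 1, while U opened 28 of the 42 matched partners that passed the filter (66.7%). These shares describe the sequences, and no test was run on them. A shared seed was rare, with 5 groups of 2 or 3 starred names, of which let-7a*, let-7b* and let-7f* were the largest.

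The arrays themselves differed in how many names stood above background. A name was taken as above background on an array if the scanner's flag to that effect was set for a share of over 0.5 of the usable spots of its brightest probe. This held for 24.2% and 24.8% of all names in KO, against 19.2% and 19.8% in WT. No spot was saturated, and all arrays lay on 1 slide and were read in 1 scan. Of 11 miRNAs known from fibroblasts, 10 were above background on every array (not miR-145), whereas none of the 7 epithelial, 5 neural, 5 blood and 1 liver marker was above background on any array, and of the 4 muscle markers only miR-206 was. The arrays did not measure the Lats2 transcript. As each array read RNA from many cells, fewer cells with a miRNA and less of it per cell cannot be told apart.

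Few of the 94 starred strands gave a signal above background in these fibroblasts. KO arrays had 5 (PDL 70) and 8 (PDL 96) of the 94 above background, and WT arrays had 4 (PDL 68) and 6 (PDL 90). Unstarred partners, present under the same name for 84 members, were above background in 44 and 45 cases in KO and in 42 and 42 cases in WT. Over all arrays, 4 starred strands were above background on all 4, 1 on 2 arrays, 5 on 1 array and 84 on none. The filter for testing required that both arrays of KO, or both of WT, be above background. It was passed by 5 of the 94 starred names (5.3%), by 45 of the 84 partners (53.6%) and by 147 of the 496 unstarred mouse names (29.6%). Of the 21 starred names left out by the rule 6 passed, among them miR-31*, miR-140*, miR-17* and miR-24-2*. The share of 5.3% therefore does not stand for all starred names on the array. Among the 84 starred names that were nowhere above background, 221 of 336 values (65.8%) lay at the floor of 1 signal unit (log2 0), and the highest was a log2 signal of 4.12 for let-7b* on the WT array of PDL 90.

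Of the 84 pairs, 43 had a partner that passed the filter and a starred strand that did not, and in 39 of these the starred strand was above background on no array. Both strands passed in 2 pairs, miR-22 and miR-29b. Neither strand was above background on any array in 36 pairs. In 3 pairs, those of miR-135a, miR-674 and miR-483, the starred strand was above background on some array and the unstarred strand on none. Signals of different probes differ also in how well the probes bind, so the gap between both strands is a gap in signal and not a count of molecules. Expressed as bounds against the lowest signal that counted as above background, or the starred signal itself where that was higher, 39 of the 43 partners were at least 1.48-fold to at least 1087.4-fold brighter than the starred strand, with a median bound of 21.8-fold. The other 4, miR-10a, miR-101a, miR-196a and miR-712, were themselves not above background on every array, and no bound above 1 was obtained.

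**Figure D1:**
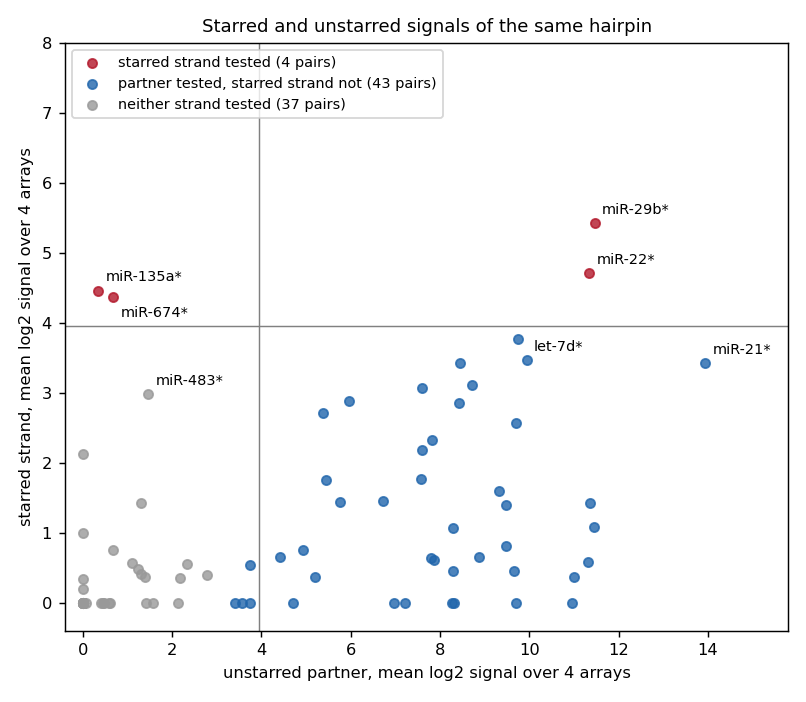
Mean log2 signal over the 4 arrays of the starred strand (vertical axis) against that of its unstarred partner (horizontal axis) for 84 hairpins; grey lines mark the highest of the 4 arrays' lowest signals well above background. Most hairpins with a bright partner lie along the bottom, and only miR-22* and miR-29b* lie above the line together with their partners, whereas miR-135a* and miR-674* lie above it with partners near the floor.

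The brightest partner whose starred strand did not pass was miR-21, a miRNA abundant in fibroblasts and raised in many tumours. miR-21 had log2 signals of 13.89 and 13.79 in KO and 14.23 and 13.85 in WT. Its starred strand had 3.51 and 3.19 in KO and 3.24 and 3.75 in WT, which was not above background by the spots, although the scanner's own flag called it detected on all 4 arrays. The groups overlapped for both strands of this hairpin. let-7f, let-7a and let-7i, of the let-7 family that restrains growth genes, averaged log2 signals of 11.38, 11.01 and 10.95 in KO against 11.51, 11.01 and 11.66 in WT. Their starred strands reached their highest values, all under 3 on the log2 scale, each time on the WT array of PDL 90. Of these 3 partners, let-7i was lower in KO (-0.71 ± 0.07, SE, on the log2 scale, limma adjusted p = 0.00519). miR-29a, of a family known to repress collagen mRNAs, averaged 11.39 in KO and 11.30 in WT, and miR-29a* reached at most 2.44.

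Several hairpin groups could be described by 3 patterns. In the first, partners were bright and starred strands silent. The rule kept 7 starred names of miR-17-92 and its paralogs, known for promoting proliferation, which reached at most a log2 signal of 3.71. None of the 7 was above background, whereas miR-17*, left out by the rule, passed the filter. All 7 partners of the names kept were tested, with mean log2 signals of 7.81 to 9.70. Of those partners 5 were called higher and 2 called lower in KO at a limma adjusted p under 0.05. Over all 159 miRNAs tested, 43.4% were called higher and 14.5% lower. The calls were 0 higher and 2 lower with median scaling or total signals, and 5 higher and 0 lower without scaling. None of the 5 starred names of the miR-15/16 group was above background, while 4 partners were tested and 3 were called lower in KO. Similarly, none of the 3 starred names kept from the miR-23, miR-27 and miR-24 clusters was above background. Both partners tested were called lower in KO. miR-24-2* of these clusters, left out by the rule, passed the filter. Under the other scalings 2 or 3 partners of the miR-15/16 group and 1 or 2 of these clusters were called lower. None was called higher. In the second pattern both strands were silent, as for the 4 starred names of the miR-200 family, known from epithelia, and the 6 of the miR-290 and miR-302 clusters, known from embryonic stem cells, none of whose partners passed the filter. In the third pattern 1 starred strand of a family was above background on some array. This held for the let-7 (let-7d*), miR-29 (miR-29b*) and miR-30 (miR-30a*) families, which have 7, 3 and 5 starred names on the array. Only miR-29b* was so on all 4 arrays, let-7d* on WT of PDL 90 alone and miR-30a* on KO of PDL 96 alone. Relatives came close, with let-7b* at 4.12 on WT of PDL 90 and miR-30e* at 2.77 to 3.03 over the arrays.

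Over all 45 partners tested, 13 were called higher and 9 called lower in KO, together 48.9%. Over all 159 miRNAs tested the calls at a limma adjusted p under 0.05 made up 57.9% (43.4% higher and 14.5% lower). The median log2 difference was 0.07 for the partners and 0.31 for all miRNAs tested. The split of the partner calls followed the scaling, with 5 called higher and 18 called lower after median scaling. The calls were 13 and 13 after quantile normalization, 7 and 13 with total signals, and 18 and 5 without scaling. The partners and the whole table were read on the same arrays, and no test of the partners as a group was made.

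To ask whether starred strands differed in cells that lack Lats2, KO was compared with WT for the 5 that passed the filter. None was called by limma at an adjusted p under 0.05, and none by the methods' t-test (a fold change of 2 or more with p under 0.05), which called 24.5% of all miRNAs tested. At an unadjusted p under 0.05 there were 2, miR-135a* and miR-22*, against 66.7% of all miRNAs tested. Signals of KO and WT did not overlap for 4 of the 5, against 79.9% of all miRNAs tested. Both counts include miR-135a*, which passed the filter through KO alone. The count of calls depended on the scaling, the filter and the arrays used, and it lay between 0 and 3 under the alternatives tried. The members called were not the same ones each time.

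**Figure D2:**
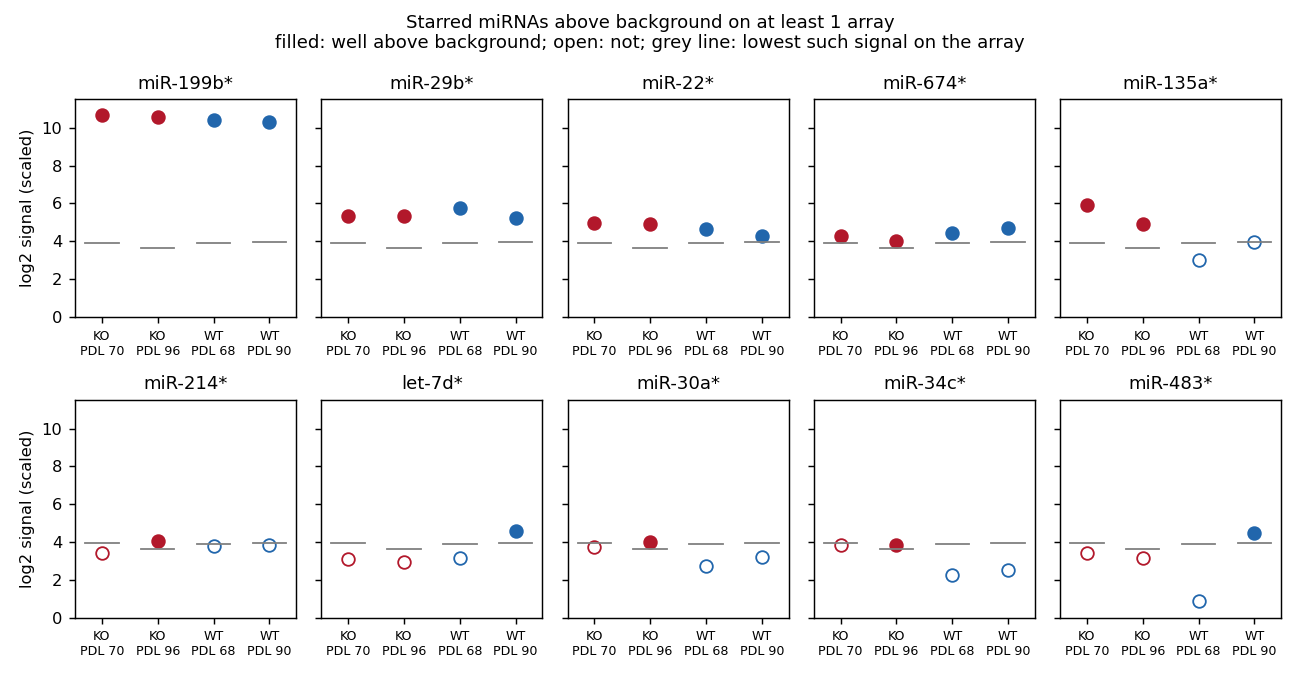
Scaled log2 signals on each array (KO at PDL 70 and 96, WT at PDL 68 and 90) for the 10 starred miRNAs above background on at least 1 array. miR-199b* lies above a log2 signal of 10 on all arrays, miR-29b*, miR-22* and miR-674* lie between 4 and 6, and miR-135a* is filled in KO only.

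miR-199b* was by far the brightest starred strand. Its probe lies on chromosome 2 at 32174007 to 32174027 (mm9, as the files give it), and the log2 signals were 10.70 and 10.57 in KO, against 10.43 and 10.28 in WT. Both KO arrays were higher than the WT arrays, by 0.28 ± 0.09 on the log2 scale (SE, n = 2 per group, limma adjusted p = 0.0767). This did not pass the threshold, and it was close to the median of 0.31 over all miRNAs tested. It turned to -0.12 with median scaling and passed at 0.43 with quantile normalization. Both probes of the miRNA were above background on every array. The array has no name miR-199b, but the probe named miR-199a-3p is also assigned to it in the files, and it had 11.63 and 11.62 in KO and 11.39 and 11.23 in WT (0.32 ± 0.08, limma adjusted p = 0.0464), a difference that was -0.09 with median scaling. The miR-199a-3p probe does not tell its hairpins apart, so the signal of the strand opposite miR-199b* could not be read on its own. miR-199a-5p, a close relative of miR-199b*, had 10.06 and 10.01 in KO and 10.12 and 9.66 in WT, and its groups overlapped. Sharing of signal between these probes was not tested.

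miR-22* comes from the hairpin inside the noncoding gene Mir22hg, and its probe lies on chromosome 11 at 75277240 to 75277257 (mm9). Log2 signals of miR-22* were 4.99 and 4.92 in KO and 4.63 and 4.29 in WT. Both KO arrays were above both WT arrays, by 0.50 ± 0.14 on the log2 scale (SE, n = 2 per group), which did not pass the threshold (limma adjusted p = 0.0585). The difference was 0.09 with median scaling and 0.07 with normexp correction, and it turned to -0.28 with quantile normalization. Normexp correction added an offset of 50 units, against 17.6 to 33.4 units of miR-22* before scaling. Such an offset draws log2 differences of faint signals towards the floor of what can be seen, so its small values are no measure of whether a difference exists. Its partner miR-22 had 11.41 and 11.32 in KO and 11.36 and 11.26 in WT, a difference of 0.05 ± 0.08 with overlapping groups (limma adjusted p = 0.588). A shorter probe for miR-22* (18 against 19 bases) was not above background on any array.

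miR-29b* belongs to the hairpin of miR-29b-1, with the probe on chromosome 6 at 31013029 to 31013049 (mm9). Its log2 signals were 5.34 and 5.35 in KO, against 5.78 and 5.24 in WT. Both KO values lay between the WT values, and the difference was -0.16 ± 0.22 (SE, n = 2 per group, limma adjusted p = 0.573). It passed at -0.87 with quantile normalization, and its sign turned without scaling (0.05). miR-29b had 11.33 and 11.54 in KO and 11.53 and 11.46 in WT (-0.06 ± 0.10). Among the 4 probes of miR-29b*, only the longest, of 22 bases, was above background.

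miR-674* was above background on all arrays while its partner was not. Its probe lies on chromosome 2 at 117010926 to 117010943 (mm9). The log2 signals of the starred strand were 4.27 and 4.03 in KO and 4.45 and 4.73 in WT, so that both KO arrays were below both WT arrays, with a difference of -0.44 ± 0.15 (SE, n = 2 per group, limma adjusted p = 0.0789). This was -0.24 with normexp correction, and it passed at -0.85 with median scaling and -1.24 with quantile normalization. The strand named miR-674 had 1.39 and 0.44 in KO, against 0.91 and 0.00 in WT. Of the 3 probes of miR-674*, only the longest, of 19 bases, was above background on all 4 arrays, and that of 18 bases was so only on the WT array of PDL 90.

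miR-135a* was above background only in KO. It belongs to the hairpin of miR-135a-1, which overlaps Glyctk and D030055H07Rik, and its probe lies on chromosome 9 at 106056520 to 106056531 (mm9). Log2 signals of miR-135a* were 5.92 and 4.93 in KO, and 3.01 and 3.97 in WT, where neither was above background. Both KO arrays were above both WT arrays, and KO was at least 2.82-fold higher against the bound set by the WT arrays, under the main scaling only. The fitted difference was 1.93 ± 0.54 (SE, n = 2 per group) with a limma adjusted p of 0.0539, just short of the threshold. It was 1.53 with median scaling, 1.07 with quantile normalization and 3.47 with total signals, so the bound does not hold under every alternative. With normexp correction it was 0.42, where the offset of 50 units shrinks differences of faint signals. Its partner miR-135a, known for repressing Apc in the Wnt pathway, had 0.00 and 0.44 in KO and 0.00 and 0.96 in WT, and was above background nowhere. As the starred strand passed the filter through KO alone, a higher value in KO was a condition of its being tested.

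The probes that read miR-135a* were short. The brightest was cgccacggctcca, of 13 bases with a GC content of 76.9%, against a median of 51.2% over the probes of the 94 starred names. With the probe of 12 bases the log2 signals were 5.22 and 4.35 in KO and 1.04 and 0.90 in WT, and only the KO values were above background. The probes of 11 and 10 bases were above background on no array. On the 13-base probe the KO array of PDL 70 gave 63.1 signal units before scaling (spot SD 12.6) and that of PDL 96 gave 33.7 (spot SD 5.61), and the WT arrays gave 7.74 (spot SD 0.826) and 14.1 (spot SD 2.79). The spread between the KO arrays was thus large beside that of the other bright starred strands.

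**Figure D3:**
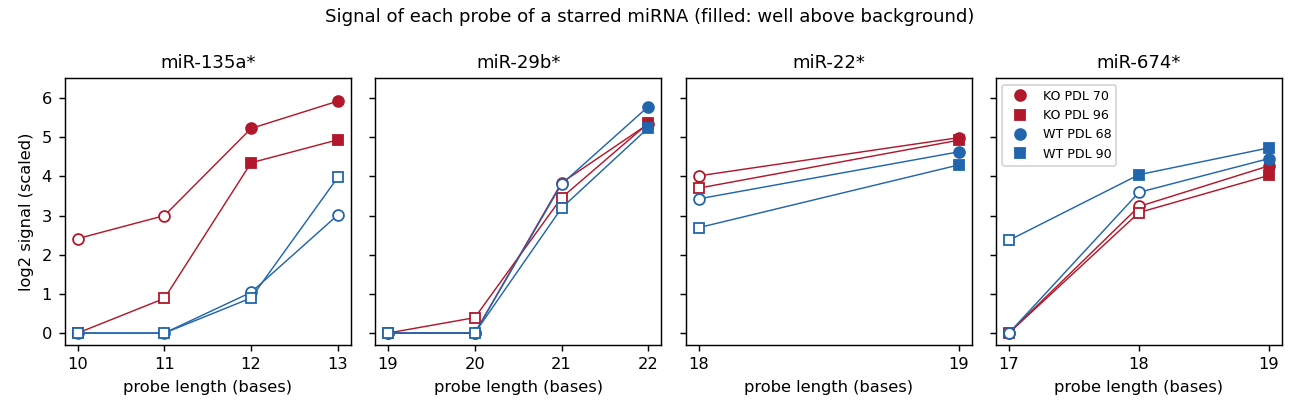
Scaled log2 signal of each probe of 4 starred miRNAs against probe length in bases, for KO at PDL 70 and 96 and WT at PDL 68 and 90; filled points are well above background. Signals are highest on the longest probe in all 4, and for miR-135a* the KO arrays lie above the WT arrays on both the 12-base and the 13-base probe.

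The strand ratio, the log2 signal of the starred strand minus that of its partner on the same array, asks whether both strands of a hairpin changed by the same factor. The scaling of an array cancels in it. Only its change between the groups is read, because the strands are read by different probes and their ratio is no ratio of molecules. The ratio of miR-22 was -6.42 and -6.40 in KO and -6.74 and -6.97 in WT, and its change was 0.44 ± 0.15 on the log2 scale (SE, n = 2 per group, limma adjusted p = 0.0836 over the 4 pairs on the array with both strands above background on all 4 arrays). For miR-29b it was -6.00 and -6.18 in KO and -5.75 and -6.22 in WT, with a change of -0.11 ± 0.15 (limma adjusted p = 0.684). The SE was the same for both because limma pooled the variance over the 4 pairs, so it is not the spread of either pair. By the methods' t-test the SE was 0.12 for miR-22 (Benjamini-Hochberg adjusted p = 0.241) and 0.25 for miR-29b (0.717). Neither change passed the threshold by limma, which called 0% of these pairs, and the methods' t-test called neither. At an unadjusted p under 0.05 limma listed miR-22 and not miR-29b. With pairs above background in at least 1 group, where 40% of 5 pairs were called, the change of miR-22 passed (limma adjusted p = 0.0258). With normexp background correction the change of miR-22 was 0.00, but its offset of 50 units shrinks differences of the faint starred strand. With quantile normalization it was -0.57 and passed in the opposite direction (limma adjusted p = 0.0196).

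**Figure D4:**
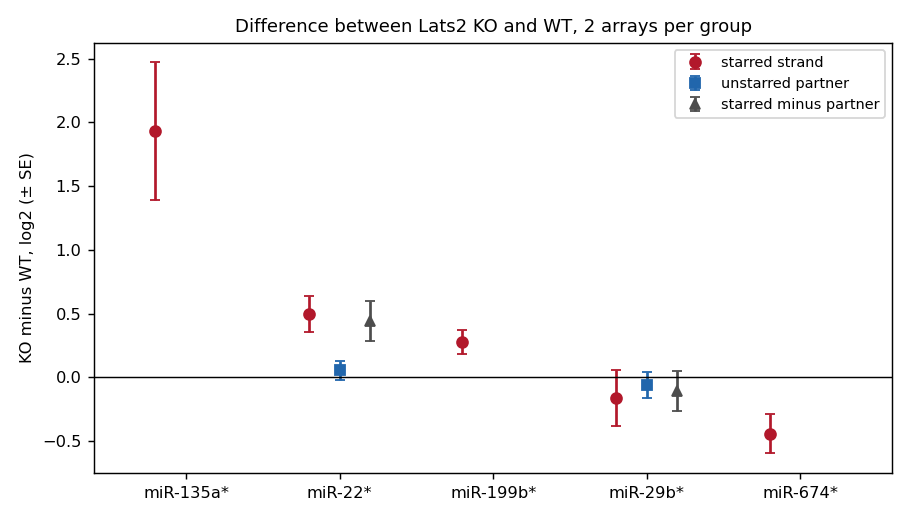
Difference of KO minus WT on the log2 scale (± SE of the fit, 2 arrays per group) for the 5 starred strands tested and, for miR-22 and miR-29b, for the unstarred partner and for the starred minus the partner signal. The SE of the starred minus the partner signal is pooled over pairs and is the same for both. The value for miR-22* lies at 0.50 with its partner at 0.05, and that of miR-135a* has the widest error, 0.54.

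On a single array, 5 further starred strands were above background, in each case on the higher PDL array of a genotype. On the KO array of PDL 96 these were miR-214*, miR-30a* and miR-34c*, and on the WT array of PDL 90 they were let-7d* and miR-483*. The lowest log2 signal counted as above background was 3.64 on the KO array of PDL 96, against 3.89 to 3.95 on the other arrays. Whether this lower limit accounts for the 3 names on that array was not tested.

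miR-34c*, from the hairpin of a miRNA induced by p53, had log2 signals of 3.83 and 3.85 in KO and 2.25 and 2.50 in WT. Both KO arrays lay above both WT arrays, but the strand did not pass the filter. miR-34c itself had 9.03 and 9.03 in KO and 8.39 and 8.45 in WT and rose by 0.61 ± 0.06 on the log2 scale (limma adjusted p = 0.00563). miR-30a* had 3.75 and 4.0 in KO and 2.74 and 3.23 in WT, again without overlap, and did not pass the filter either. KO and WT did not overlap for 79.9% of all miRNAs tested, and most values of both starred strands were below background. The partner of miR-30a*, miR-30a, rose in KO by 0.65 ± 0.08 (limma adjusted p = 0.00836), with 8.72 and 8.84 in KO and 8.10 and 8.16 in WT. With median scaling neither partner was called, at 0.21 for miR-34c and 0.25 for miR-30a.

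When the scanner's flag for a detected miRNA replaced the filter, 11 starred names were tested and 3 were called, against 52.7% of all 184 miRNAs tested in that way. These were miR-34c*, miR-30a* and miR-24-1*. The flag was set for miR-34c* and miR-30a* in KO alone and for miR-24-1* in WT alone, so the direction was a condition of their being tested, and with most of their signals below background no fold is given. miR-24-1*, from a hairpin of the miR-23, miR-27 and miR-24 clusters, had 2.95 and 3.07 in KO and 3.69 and 3.92 in WT, and was above background on no array. The probe for miR-24, which has more than 1 hairpin, had 10.05 and 10.22 in KO and 10.91 and 11.04 in WT (-0.84 ± 0.10, limma adjusted p = 0.00836).

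miR-214*, of the hairpin in Dnm3os that is known from mesenchyme, had log2 signals of 3.40 and 4.06 in KO and 3.80 and 3.83 in WT, with overlapping groups. miR-214 had 9.90 and 9.91 in KO and 9.71 and 9.48 in WT (0.31 ± 0.11, limma adjusted p = 0.0789). let-7d* had 3.12 and 2.96 in KO and 3.18 and 4.60 in WT, where the array of PDL 90 stood apart, while let-7d had 9.90 and 9.90 in KO and 9.99 and 9.99 in WT. miR-483*, from an intron of Igf2, had 3.44 and 3.13 in KO and 0.88 and 4.48 in WT, so the WT values spanned the KO values. The opposite strand miR-483 was above background on no array.

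More faint starred strands were flagged as detected on the WT array of PDL 90 than on the others. By the scanner's flag, 8 and 9 starred names were detected in KO and 9 and 14 in WT, whereas the flag was set for 27.5% and 28% of all 650 names in KO and for 22% and 26.2% in WT. The 5 starred names detected on the WT array of PDL 90 alone were let-7b*, miR-18a*, miR-483*, miR-877* and miR-99b*, with log2 signals of 3.71 to 4.48 there and at most 3.44 elsewhere. Their probes had GC contents of 57.9% to 66.7%, above the median of 51.2% over the 94 starred names. The median over all spots before scaling was also highest on the WT array of PDL 90 (0.595 units). Neither its part nor that of GC content in these signals was tested.

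Between the higher and the lower PDL, with genotype in the model, limma called 0 of the 159 miRNAs (8 at an unadjusted p under 0.05, none of them a starred strand described here). The lowest adjusted p among the 5 starred strands was 0.826. Differences of higher minus lower PDL ran from -0.26 ± 0.20 for miR-29b* to 0.01 ± 0.18 for miR-674* on the log2 scale (SE). No other test was run for PDL.

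No identical name without the star was on the array for 10 starred names. For 8 of them an unstarred name without the locus number was present, and for 6 of the 8 it passed the filter, although no starred strand among these 8 was above background on any array. For example, let-7c had 10.23 and 10.30 in KO and 9.20 and 9.18 in WT (1.07 ± 0.06, limma adjusted p = 0.0017), and let-7c-1* was above background nowhere. miR-125b-5p, opposite miR-125b*, had 12.54 and 12.53 in KO and 13.08 and 13.11 in WT (-0.56 ± 0.06, limma adjusted p = 0.006), and miR-125b* was above background nowhere either.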

How the data were processed

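miRNAs in total RNA of 2 KO and 2 WT cultures were measured. Per the file headers, the authors used Agilent Feature Extraction 10.5.1.1, which gave background-subtracted intensity per spot, not normalized between arrays, and flags for outlier spots, spots well above background and detected miRNAs (deposited values of 0 or 1). The deposited series matrix holds the same intensity to within 0.495%. Outlier and control spots were left out, spots of a probe averaged, arrays scaled to their 75th percentile over probes above background on all 4 arrays (531, 562, 488 and 458 units), floored at 1 unit and put on log2, and each miRNA read by its brightest probe (limma 3.58.1, R 4.3.3, two-sided, Benjamini-Hochberg over 159 miRNAs). The code was tested on simulated data. Members and lists were chosen with earlier results of these data known. Every starred miRNA above background on both arrays of a group was named with its values, those on fewer arrays once, of the 84 on none a few, and the 5 brightest partners whose starred strand did not pass. Names such as miR-24-1*, miR-183*, let-7c and miR-125b-5p were added after their values were seen. Host genes are names of RefSeq genes (GRCm38.p6) that contain the hairpin. The number of arrays limits all precision. Replicate numbers follow the order of the records.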

Additional observations from a re-analysis of the deposited data

How the results depend on the processing

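The count of starred strands called between KO and WT was 0 and became 1 with probes above background on all 4 arrays (miR-22*), with a floor of 4 (miR-135a*), with median scaling (miR-674*) and with normexp correction (miR-199b*), 2 without a filter (miR-34c* and miR-183*, of which miR-183* was above background nowhere), and 3 with the detected flag as filter, without scaling (miR-135a*, miR-199b*, miR-22*) and with quantile normalization (miR-199b*, miR-29b*, miR-674*). Leaving out 1 array gave 0 to 2 calls (miR-22* without WT of PDL 68, miR-135a* and miR-29b* without WT of PDL 90). The count was 0 under the other 7 alternatives that kept all arrays. The log2 median of all miRNAs was 0.31, -0.09 with median scaling, 0.12 with quantile normalization, 0.52 without scaling, 0.11 with normexp correction and 0.04 with total signals, so small differences are to be read against it.

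The sign turned for miR-199b* with median scaling (-0.12), for miR-22* with quantile normalization (-0.28), for miR-29b* with the mean of all probes (0.05), without scaling (0.05) and in the range without 1 array (-0.44 to 0.11), and with a 75th percentile over all probes for miR-29b* (3.15) and miR-674* (2.21), where the median of all miRNAs was 3.86 and none was called. Without 1 array, differences were 1.44 to 2.43 for miR-135a*, 0.21 to 0.35 for miR-199b*, 0.33 to 0.66 for miR-22* and -0.58 to -0.31 for miR-674*. Called strand ratio changes numbered 1 with the mean of all probes, with pairs above background in at least 1 group and, at 0 to 1, without 1 array (all miR-22), and 2 with quantile normalization, where miR-22 turned to -0.57. The miR-29b ratio turned with the mean of all probes (0.03), total signals (0.01) and without 1 array (-0.34 to 0.13), and that of miR-22 lay at 0.33 to 0.56 without 1 array. The cause was not tested. No call for PDL was made under any of its 4 alternatives. By the detected flag 8 (KO of PDL 70), 9 (WT of PDL 68) and 14 (WT of PDL 90) starred names were detected, and with any probe above background the numbers were 5 and 8 in KO and 4 and 7 in WT. With PDL (lower or higher) as a block, no starred strand and no strand ratio was called, and 44% of all miRNAs were. The replicate numbers themselves pair no samples.

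Signals near background limit what can be measured: for 84 starred names only a bound was available, and 2 arrays of 1 clone per genotype carry no spread between clones.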

Other observations

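miR-183*, from a hairpin of a cluster known from sensory cells, had log2 signals of 2.98 and 2.76 in KO, both below background, and lay at the floor on both WT arrays, so no fold is given. miR-877* was above background by another of its probes on the WT array of PDL 90 alone, with 3.82 there on its brightest probe, against 1.37 and 0.50 in KO and 0.00 in WT of PDL 68.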
